A study of Mus with 4 samples.

Results

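The interferon regulatory factors are transcription factors that share an amino-terminal DNA-binding domain and bind the interferon-stimulated response element. The genes described are Irf1, Irf2, Irf3, Irf4, Irf5, Irf7, Irf8 and Irf9, chosen by name and read, for each gene, from the array row that names only that gene and has the highest mean over the arrays. They are 8 of 30142 genes with such a row, and all 8 were among the 16245 genes tested, whose mean log2 level was above 4.22. RNA came from sorted liver natural killer (NK) cells that lack DX5, the integrin chain encoded by Itga2, a population regarded as tissue-resident. The WT group had 2 Affymetrix arrays from C57BL/6 mice, and the dnTGFbRII group had 2 arrays from mice of the same strain whose transgene encodes a dominant-negative TGF-beta receptor II and which develop inflammation of the liver. All mice were female and 6 to 8 weeks old. The labels do not name the promoter of the transgene, nor do they say whether arrays of 1 genotype stem from different animals or sorts. The p-values therefore reflect only the spread among these 4 samples, which may be technical.

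As background, these factors divide by role. Irf3 and Irf7 are phosphorylated below nucleic acid sensors and transcribe type I interferon genes, and Irf5 acts below Toll-like receptors. Irf9 is the DNA-binding subunit of the complex ISGF3, which also holds Stat2 and acts below the type I interferon receptor. Irf1 is induced by interferon-gamma and activates antigen presentation genes, while Irf2 competes for the same sites and is required for NK cell maturation in mice. Irf4 and Irf8 bind DNA with partner factors in lymphocytes and myeloid cells, and Irf8 is required for type 1 conventional dendritic cells.

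The NK cell markers were present on every array, with Ncr1, an NK activating receptor, between 16.87 and 17.19 and Tbx21, which encodes T-bet, between 14.89 and 15.36 on the log2 scale. The NK cell markers had 4 positive and 9 negative differences of 13 tested (median -0.05), as did the markers of liver-resident NK cells and type 1 innate lymphoid cells (median -0.13, but 0.03 without WT array 2 and 0.10 without dnTGFbRII array 1). The lists of dendritic and T cell markers had larger medians. All 15 measured dendritic cell markers had negative differences between dnTGFbRII and WT cells (median -1.30), as did the 14 tested (median -1.78), of which 13 were highest on WT array 1. Of the 14 tested, 1, Flt3, passed the filter only through its WT level. Without WT array 1 the median of the tested markers was -0.93, with 12 of 14 negative, and without WT array 2 it was -2.65. Of 11 tested T cell markers, 9 had positive differences (median 0.51), and the 2 negative ones were Cd3g and Bcl11b. Of these 11, 1 passed the filter only through its dnTGFbRII level. Over the 14 measured, 12 were positive and 2 negative (median 0.42). Chains of the CD3 complex differed in direction, with Cd3e at 10.23 and 8.64 on the WT arrays and 12.84 and 11.60 on the dnTGFbRII arrays, and Cd3g at 15.90 and 15.81 against 15.47 and 15.34. The summed level of the 14 measured T cell markers was 16.00 and 15.89 in WT and 15.95 and 15.69 in dnTGFbRII cells on the log2 scale, and Cd3g carried most of it. Array medians lay between 4.20 and 4.26, and the small number of arrays limits how precise each value is.

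No Irf gene differed between the genotypes at an adjusted p of 0.05 in limma, a linear model fitted here across all tested genes, and 0 of the 8 had an unadjusted p under 0.05. Among all tested genes the background was 0% higher and 0% lower at the adjusted threshold, and 3.23% in either direction at the unadjusted one. The adjusted p of each Irf gene was 1.00. Irf9 was the 1 gene of the 8 whose 2 dnTGFbRII values both exceeded its 2 WT values, a pattern that 12.6% of tested genes had, so a count of 1 in 8 is at the background. None lay lower on both dnTGFbRII arrays, against 14.5% of tested genes, and for the other 7 the genotypes overlapped, as for 72.8% of tested genes. Of the 8 differences, dnTGFbRII minus WT, 5 were positive and 3 negative, with a median of 0.03, against a median of -0.01 over all tested genes. These counts depended on single arrays. Without WT array 1 there were 3 higher and 1 lower, without WT array 2 there were 2 higher and 3 lower, without dnTGFbRII array 1 there were 4 higher and 0 lower, and without dnTGFbRII array 2 there were 1 higher and 4 lower. With 3 arrays, 26.9% to 33.6% of tested genes were higher and 29.0% to 37.9% lower without overlap. With 2 arrays in each genotype, the smallest 2-sided p of an exact permutation test is 0.333.

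**Figure D1:**
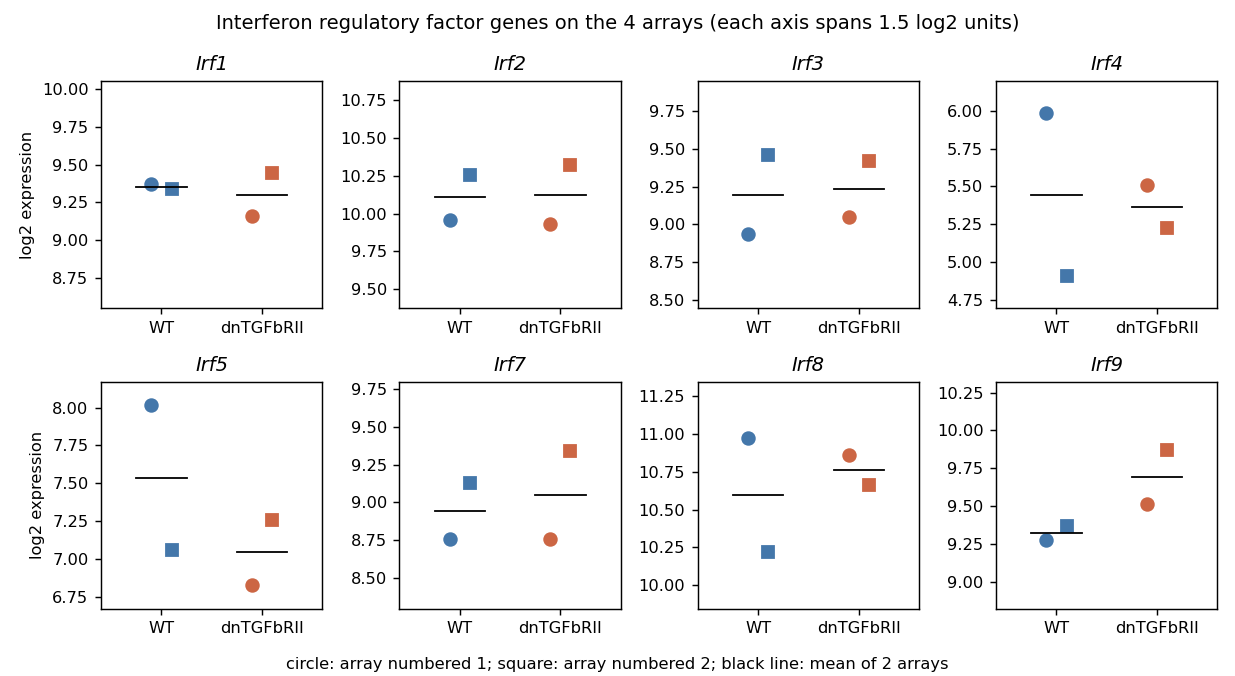
Log2 expression of each Irf gene on the 4 arrays, with every vertical axis spanning the same range so that distances can be compared between panels; circles are arrays numbered 1, squares arrays numbered 2 and black lines the means. The Irf9 arrays do not overlap between genotypes, while Irf4, Irf5 and Irf8 have widely separated WT arrays.

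Irf9, the DNA-binding part of ISGF3, measured 9.28 and 9.37 on WT arrays 1 and 2 and 9.52 and 9.87 on dnTGFbRII arrays 1 and 2. Both dnTGFbRII arrays were the higher, and the WT arrays lay close together. The difference was 0.37 ± 0.17 (SE of the limma fit), a 1.29-fold level, with a 95% interval from -0.08 to 0.82 and an unadjusted limma p of 0.0861. This difference exceeded the larger gap between 2 arrays of a genotype, 0.35, and 93.1% of tested genes had a smaller one. With 1 array left out at a time it ranged from 0.19, without dnTGFbRII array 2, to 0.55, without dnTGFbRII array 1.

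Irf7, which amplifies type I interferon production and is itself an interferon target, measured 8.76 and 9.13 on the WT arrays and 8.76 and 9.34 on the dnTGFbRII arrays. Array 2 was the higher in each genotype, and the lower array of each genotype sat at nearly the same level. The difference of 0.10 ± 0.26 (95% interval -0.58 to 0.79) was smaller than the gap of 0.58 between the dnTGFbRII arrays. It turned negative without WT array 1 (-0.08) and without dnTGFbRII array 2 (-0.19).

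Irf3, the constitutively expressed factor that first responds to nucleic acid sensing, measured 8.94 and 9.46 on the WT arrays and 9.05 and 9.42 on the dnTGFbRII arrays. The WT values enclosed the dnTGFbRII values, and array 2 was the higher in each genotype. The difference was 0.03 ± 0.24 (95% interval -0.61 to 0.68), against a gap of 0.52 between the WT arrays, and it turned negative without WT array 1 (-0.22) or without dnTGFbRII array 2 (-0.15).

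Irf1 measured 9.37 and 9.34 on the WT arrays and 9.16 and 9.44 on the dnTGFbRII arrays. Its WT values lay between its dnTGFbRII values, and the WT gap of 0.03 was smaller than that of all but 10.6% of tested genes. The difference was -0.05 ± 0.15 (95% interval -0.45 to 0.35), the narrowest interval of the 8 genes, and it was 0.09 without dnTGFbRII array 1. A second row that also names only Irf1 read between 4.49 and 4.81, and averaging both rows gave a difference of -0.11.

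Irf2, the counterpart of Irf1 on shared sites, measured 9.96 and 10.26 on the WT arrays and 9.93 and 10.32 on the dnTGFbRII arrays. The dnTGFbRII values enclosed the WT values. The difference of 0.02 ± 0.20 (95% interval -0.52 to 0.55) was smaller than that of all but 10.7% of tested genes. Its sign was not fixed, being negative when each array was centred on its median (-0.01), without WT array 1 (-0.13) and without dnTGFbRII array 2 (-0.18).

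**Figure D2:**
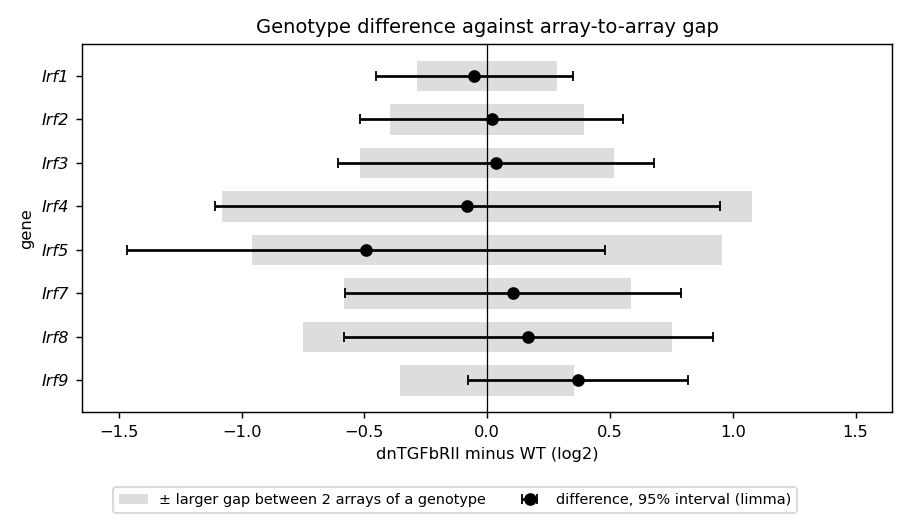
Difference between genotypes for each Irf gene (horizontal axis, log2, dnTGFbRII minus WT) with its 95% interval from limma, over a grey bar that extends by the larger of the 2 gaps between arrays of one genotype on either side of 0. All 8 intervals include 0, and the Irf9 difference alone lies outside its grey bar.

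Irf8 was the gene whose array-to-array spread was examined in most detail. It measured 10.97 and 10.22 on the WT arrays and 10.86 and 10.66 on the dnTGFbRII arrays. The WT arrays were the highest and the lowest of the 4, and both dnTGFbRII values lay between them. The genotype difference was 0.17 ± 0.28 (95% interval -0.58 to 0.92), a 1.12-fold level with an unadjusted limma p of 0.583. The gap between the WT arrays was 0.75, a 1.68-fold distance, and 96.7% of tested genes had a smaller WT gap, while the median WT gap was 0.17. The gap between the dnTGFbRII arrays was 0.20, near the median of 0.21 for that genotype. Compared with WT array 2 alone Irf8 was higher in dnTGFbRII cells (0.54), and compared with WT array 1 alone it was lower (-0.21).

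Irf4 had the widest WT gap of the family. It measured 5.99 and 4.91 on the WT arrays and 5.51 and 5.23 on the dnTGFbRII arrays, so the WT arrays enclosed the dnTGFbRII arrays as they did for Irf8. The WT gap of 1.08 was larger than that of 98.9% of tested genes, and the difference was -0.08 ± 0.39 (95% interval -1.11 to 0.95). The sign turned without WT array 1 (0.46) and without dnTGFbRII array 2 (0.06). These values lay within the range of the array's 23 background control rows, 2.13 to 6.21, and the table holds no detection call, so a low level of Irf4 cannot be told from background.

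Irf5 measured 8.01 and 7.06 on the WT arrays and 6.83 and 7.26 on the dnTGFbRII arrays. WT array 1 stood above the other 3, among which WT array 2 lay between the dnTGFbRII values. The difference of -0.49 ± 0.37 (95% interval -1.47 to 0.48) was the largest of the 8 in size and larger than that of 96.4% of tested genes. It rested on WT array 1, since without that array it was -0.01 and without WT array 2 it was -0.97. The WT gap of 0.96 was larger than that of 98.5% of tested genes.

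**Figure D3:**
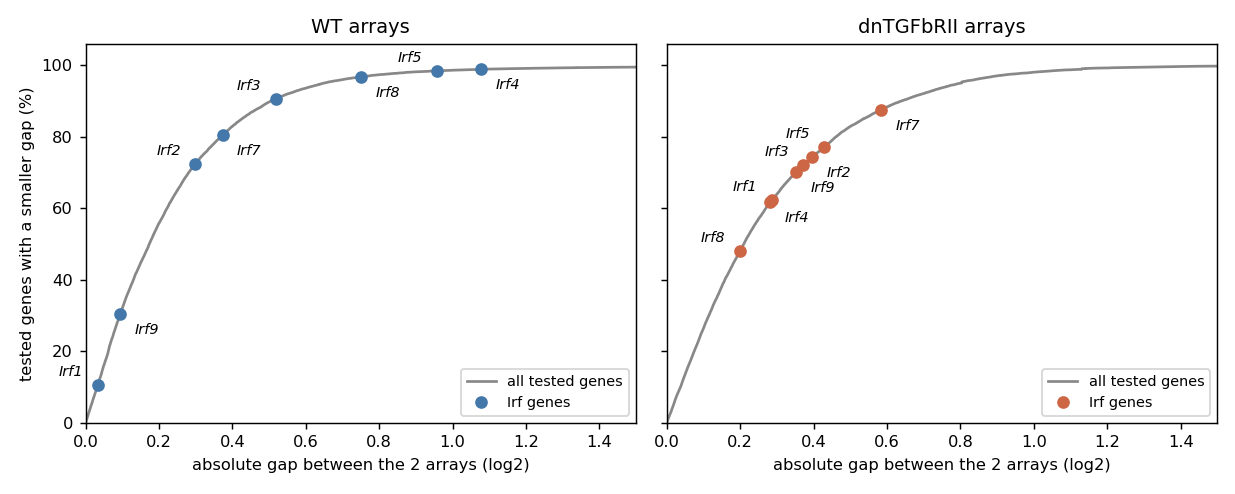
Absolute gap between the 2 arrays of a genotype (horizontal axis, log2) against the percentage of tested genes with a smaller gap (vertical axis), for WT arrays on the left and dnTGFbRII arrays on the right; the grey line is all tested genes and the points are the Irf genes. Irf4, Irf5 and Irf8 are far along the WT curve, with gaps of 1.08, 0.96 and 0.75, and none of them exceeds 0.43 on the dnTGFbRII curve.

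Irf4, Irf5 and Irf8 were the 3 genes of the family that were highest on WT array 1, which was the highest array for 26.4% of tested genes. Dendritic cell markers were highest on the same array. The class II chain H2-Ab1 measured 15.72 and 13.40 on the WT arrays and 11.29 and 11.73 on the dnTGFbRII arrays. Clec9a, a receptor of type 1 conventional dendritic cells, measured 9.83 and 6.71 on the WT arrays and 4.77 and 4.82 on the dnTGFbRII arrays. The summed level of the 15 measured markers of this list, on the log2 scale, was 17.46 and 16.76 on the WT arrays and 15.91 and 16.54 on the dnTGFbRII arrays. That sum includes Itgax, which NK cells also express and which was between 15.61 and 16.37. Itgax carried most of the sum on every array but WT array 1. No marker can be called absent, since the table has no zeros, but Clec9a and Flt3 on the dnTGFbRII arrays were within the range of the background control rows. Flt3 was also within this range on WT array 2. The part of other cells in the Irf4, Irf5 and Irf8 values was not tested, and fewer cells of a type cannot be told apart from less RNA per cell.

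Compared with WT array 2 alone, 11 of the 14 tested dendritic cell markers were lower on both dnTGFbRII arrays (29.0% of all tested genes). Zbtb46 was the 1 marker higher on both (26.9% of all tested genes), with 4.52 on WT array 2 and 4.70 and 4.55 on the dnTGFbRII arrays. Its values lay within the range of the background control rows. Irf4 and Irf8 were higher on both dnTGFbRII arrays than on WT array 2. Irf5 was lower than WT array 2 on dnTGFbRII array 1 and higher on dnTGFbRII array 2, as was the class II accessory gene H2-DMa (8.24 on WT array 2, 8.10 and 8.30 on the dnTGFbRII arrays). Among genes that depend on Irf8 in type 1 conventional dendritic cells, 13 of 14 measured had negative differences (median -0.57). Of these 14, 12 were lower on both dnTGFbRII arrays (14.5% of all tested genes). Of the 12 tested, 11 were negative (median -1.18), 10 were lower on both dnTGFbRII arrays (14.5% of all tested genes) and 6 were lower at an unadjusted limma p under 0.05 (1.29% of all tested genes). Of these 12, Flt3 and Tlr3 passed the filter only through their WT level, and both are counted in the 10 and in the 6. Without WT array 1 the median of the tested genes was -0.50, with 10 of 12 negative. The leading members by test statistic were Wdfy4, needed for cross-presentation, Clec9a, the growth factor receptor Flt3 and the RNA sensor Tlr3. Wdfy4 measured 8.71 and 6.56 on the WT arrays and 4.78 and 4.96 on the dnTGFbRII arrays, and Flt3 measured 7.20 and 5.14 against 3.92 and 3.88. Tlr3 measured 7.25 and 4.89 on the WT arrays and 3.82 and 3.84 on the dnTGFbRII arrays. All 4 lay within the range of the background control rows on the dnTGFbRII arrays, so the size of their differences is not given. On WT array 2, Flt3 and Tlr3 lay within that range as well. None of the tested genes passed the adjusted threshold, and 3 of the listed genes are also dendritic cell markers. Batf3 and Id2, both factors of the same dendritic cell programme, differed by -0.26 ± 0.34 and 0.06 ± 0.12. Batf3 lay within the range of the background control rows on every array. Id2 was high on every array of these sorted NK cells, between 15.21 and 15.35, and which cells its signal came from was not tested.

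**Figure D4:**
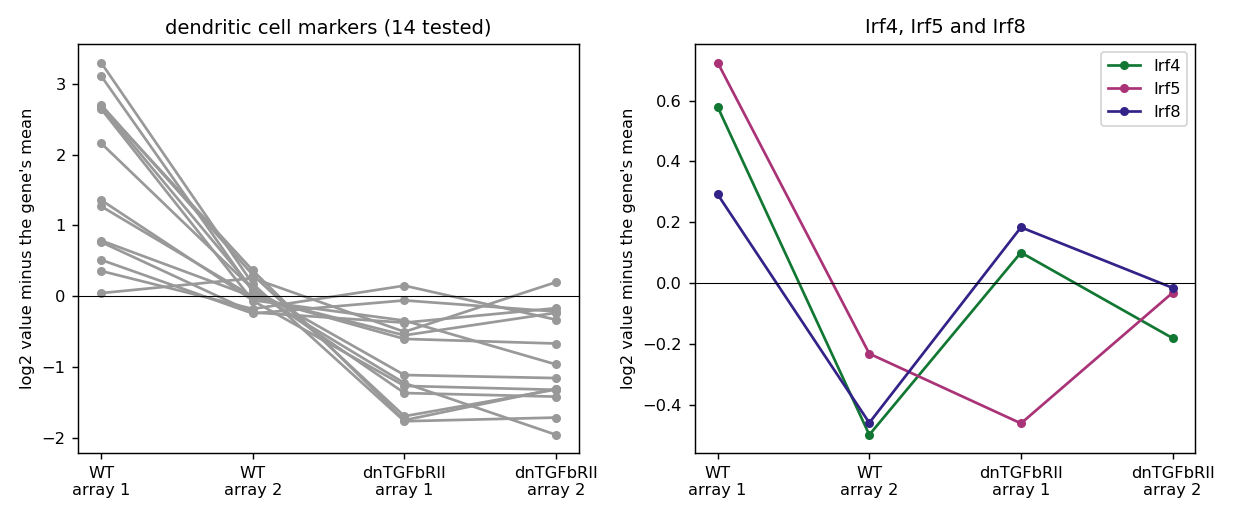
Log2 value minus the gene's own mean over the 4 arrays (vertical axes, which differ in scale) for the 14 tested dendritic cell markers on the left and for Irf4, Irf5 and Irf8 on the right; each line joins 1 gene's values and implies no order of the arrays. Both panels are high on WT array 1. Irf4 and Irf8 are lowest on WT array 2. For 10 of the 14 markers both dnTGFbRII values are below both WT values (14.5% of all tested genes).

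Markers of other cells that express Irf5 or Irf8 gave the following values. Of 10 tested macrophage and monocyte markers, 8 had positive differences (median 0.28). The median was 0.04 over the 15 measured, 0.51 without WT array 1, -0.01 without WT array 2, where 5 were positive and 5 negative, and 0.09 without dnTGFbRII array 2. The summed level was 11.47 and 10.49 on the WT arrays and 11.18 and 11.79 on the dnTGFbRII arrays. Csf1r, the receptor that defines this lineage, measured 6.56 and 5.66 on the WT arrays and 6.08 and 6.82 on the dnTGFbRII arrays. Of 10 tested plasmacytoid dendritic cell markers, 5 were positive and 5 negative (median 0.02), and 1 passed the filter only through its dnTGFbRII level. Of the 13 measured, 5 were positive and 8 negative (median -0.09). Their summed level ranged from 10.81 to 10.91 in WT and from 10.51 to 10.99 in dnTGFbRII cells. Bst2, which is also in the list of Irf9 targets, carried most of this sum and measured between 9.72 and 10.47. Siglech, the defining marker, measured 5.90 and 4.95 against 5.08 and 4.81, inside the range of the background control rows. Of 7 tested B cell and plasma cell markers, 5 were positive (median 0.14). Summed levels of the 13 measured (median difference 0.05) were from 14.60 to 14.86 in WT and from 14.79 to 14.93 in dnTGFbRII cells. For neutrophil markers the median was 0.38 over 5 tested genes and 0.08 over the 12 measured. Of these 5 tested genes, 2 passed the filter only through their dnTGFbRII level. For hepatocyte markers the median was -0.07 over 4 tested genes and 0.01 over the 11 measured.

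The partner factors of Irf4 and Irf8 did not pass as single genes. Of 11 tested, 7 had positive differences and 4 negative (median 0.15), and 1 had an unadjusted limma p under 0.05 on the positive side (1.95% of all tested genes), namely Stat3. Stat3, the transcription factor below interleukin-6 and interleukin-21 receptors, measured 13.28 and 13.04 in WT and 13.89 and 13.53 in dnTGFbRII cells (0.55 ± 0.19). Batf, which pairs with Irf4 in activated lymphocytes, differed by 0.37 ± 0.24, Nfatc1 by 0.18 ± 0.12 and the Ikaros family factor Ikzf3 by 0.18 ± 0.14. Of 14 tested proteins that bind or regulate these factors, 7 were positive and 7 negative (median 0.01) and 0 had an unadjusted p under 0.05. They included the Irf2-binding proteins Irf2bp2 (-0.18 ± 0.15), Irf2bp1 (0.00 ± 0.17) and Irf2bpl (0.05 ± 0.23).

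Upstream of Irf3, Irf5 and Irf7, the sensors, adaptors and kinases had 13 positive and 6 negative differences of 19 tested (median 0.12), and 5 were higher on both dnTGFbRII arrays (12.6% of all tested genes). Ifih1, the RNA sensor MDA5, measured 8.43 and 8.09 in WT and 9.90 and 8.79 in dnTGFbRII cells (1.08 ± 0.40). Sting1, the adaptor of cytosolic DNA sensing, measured 11.19 and 11.50 in WT and 11.67 and 11.89 in dnTGFbRII cells (0.44 ± 0.17). Ikbke, a kinase of Irf3 and Irf7, differed by 0.54 ± 0.26, and Tbk1, the other such kinase, by 0.06 ± 0.19. None of these passed the adjusted threshold. Tlr3 was the 1 member lower on both dnTGFbRII arrays (14.5% of all tested genes), and it was highest on WT array 1, as the dendritic cell markers were. It passed the filter only through its WT level. The median of this list was 0.02 without dnTGFbRII array 2.

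The interferon genes that Irf3 and Irf7 transcribe lay within the range of the background control rows on every array. Of 13 measured, 3 exceeded the filter, namely Ifna5 (0.20 ± 0.14), Ifna4 (0.14 ± 0.14) and Ifna1 (0.11 ± 0.16), and their values lay between 4.43 and 4.97. These genes are close copies whose probes can share signal. Ifnb1, which encodes interferon-beta, lay between 3.86 and 4.27 and was not tested.

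The receptors and signalling proteins that feed Irf9 and Irf1 included Ifnar1 (0.00 ± 0.20) and Ifnar2 (0.03 ± 0.18), the 2 chains of the type I interferon receptor, and Ifngr1 (-0.08 ± 0.22) and Ifngr2 (-0.52 ± 0.45), those of the interferon-gamma receptor. Ifngr2 measured 5.82 and 4.55 on the WT arrays and 4.53 and 4.79 on the dnTGFbRII arrays, with WT array 1 above the rest. These Ifngr2 values lay within the range of the background control rows. Stat2, the partner of Irf9 in ISGF3, measured 9.48 and 9.84 on the WT arrays and 9.56 and 10.39 on the dnTGFbRII arrays (0.31 ± 0.33). As with Irf9, dnTGFbRII array 2 was the highest, but the Stat2 arrays overlapped between genotypes. Of the 12 tested genes of this list, 7 had positive and 5 negative differences (median 0.01). Stat3 and Usp18, a negative regulator of the type I interferon receptor (0.49 ± 0.18), were the 2 with an unadjusted limma p under 0.05. Both were on the positive side (1.95% of all tested genes). Stat3 is also counted among the partner factors, and Usp18 among the Irf9 targets.

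Most type I interferon targets that use Irf9 had positive differences, and this list was known from earlier results of these data. Of 24 tested, 19 had positive differences (median 0.46), 14 were higher on both dnTGFbRII arrays (12.6% of all tested genes) and 9 had a positive difference with an unadjusted limma p under 0.05 (1.95% of all tested genes). None passed the adjusted threshold. Oas1a, an antiviral oligoadenylate synthetase, measured 7.92 and 7.94 in WT and 9.16 and 9.51 in dnTGFbRII cells. Mx1, an antiviral GTPase, measured 5.92 and 5.95 in WT and 6.54 and 6.59 in dnTGFbRII cells. The WT values of Mx1 lay within the range of the background control rows. So did values of other genes in this list, some of the 9 among them. Ifit1 measured 6.57 and 6.50 in WT and 8.96 and 8.09 in dnTGFbRII cells. The array order was not shared throughout, since Ifit1 and Oasl1 (6.65 and 6.96 in WT, 8.89 and 8.37 in dnTGFbRII cells) were highest on dnTGFbRII array 1, and Irf9, Irf7 and Stat2 on dnTGFbRII array 2. The median of the list was 0.27 without dnTGFbRII array 2.

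**Figure D5:**
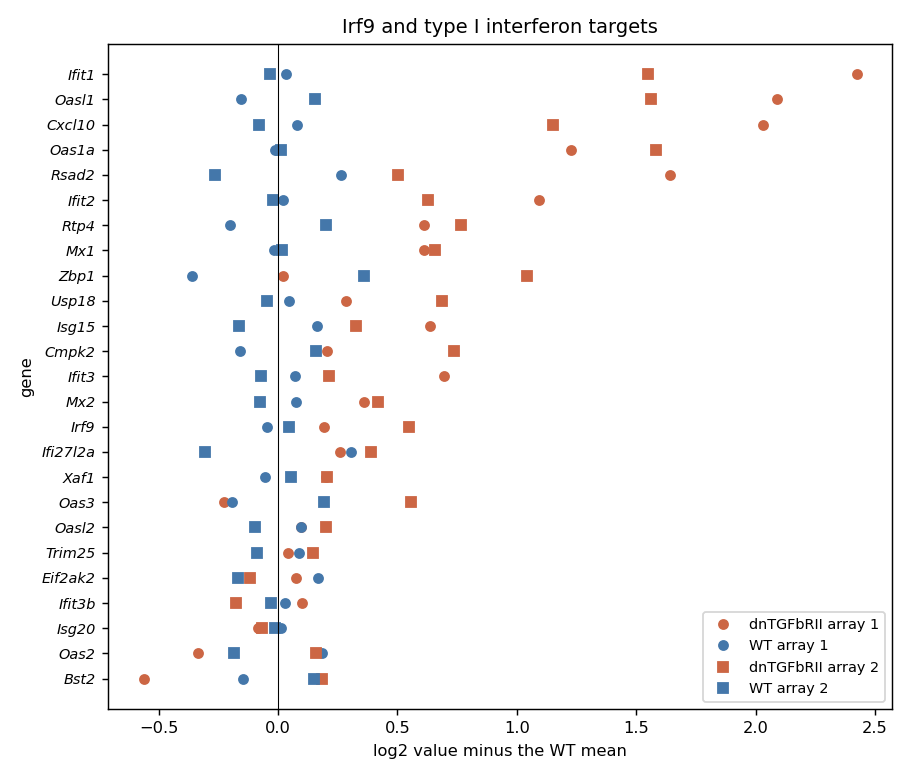
Log2 value minus the WT mean (horizontal axis) for Irf9 and the 24 tested type I interferon targets on each array, blue for WT and orange for dnTGFbRII, circles for array 1 and squares for array 2, ordered by the difference between genotypes. Irf9 lies in the lower middle at 0.37. Of the targets, 14 have both dnTGFbRII points to the right of both WT points (12.6% of all tested genes).

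Genes that depend on Irf1 had smaller differences. Of 17 tested, 15 were positive and 2 negative (median 0.14), 4 were higher on both dnTGFbRII arrays (12.6% of all tested genes) and 2 lower on both (14.5%). Gbp3, an interferon-inducible GTPase, measured 8.30 and 8.14 in WT and 9.07 and 8.78 in dnTGFbRII cells (0.71 ± 0.16). Casp1, the inflammatory caspase, differed by 0.73 ± 0.30, and Psmb8, an immunoproteasome subunit, by 0.16 ± 0.12. Ciita, the class II transactivator and also a dendritic cell marker, measured 6.30 and 5.03 in WT and 4.43 and 4.37 in dnTGFbRII cells. Its values on all arrays but WT array 1 lay within the range of the background control rows. None passed the adjusted threshold. Without dnTGFbRII array 2 the median was -0.02.

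The arrays also ordered the family within genotypes. Irf2, Irf3, Irf7 and Irf9 were higher on array 2 than on array 1 in both genotypes, as were 33.7% of tested genes, and Irf4 and Irf8 were higher on array 1 in both, as were 38.0%. Irf1 and Irf5 went opposite ways in the 2 genotypes. The labels do not say what the array number marks.

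The genes whose 4-array profile was nearest to that of Irf7 and Irf8 were found by the Euclidean distance between log2 values minus their own mean, over 10243 other protein-coding genes. For Irf8 they were the transcriptional repressor gene Hey1 (distance 0.04), Bcl2a1d (0.05), the orphan nuclear receptor gene Nr4a3 (0.06), Bcl2a1a (0.10), the nuclear receptor gene Pparg (0.10) and the AP-1 factor gene Fosl2 (0.12). Bcl2a1d and Bcl2a1a encode survival proteins of the BCL2 family and are close copies whose probes can share signal. Hey1 and Pparg lay within the range of the background control rows on every array. Nr4a3 measured 10.85 and 10.16 on the WT arrays and 10.80 and 10.62 on the dnTGFbRII arrays. For Irf7 they were Mmachc, Was, Eola1, Rbm38, Vac14 and Bak1, at distances from 0.02 to 0.04. With 4 arrays such a likeness is common, since 1006 genes had a Pearson correlation above 0.95 with Irf7 and 187 with Irf8.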

How the data were processed

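Sorted DX5-negative liver NK cells were profiled on 4 arrays, grouped by the genotype in the labels. The deposited log2 values were made by the authors with RMA in the Affymetrix Expression Console, per the submitters' processing notes. The sources used here give neither versions nor a genome build, and coordinates are left out. Values were used as deposited. Of 72688 rows, 30604 name 1 gene and 2146 several in the platform annotation, and symbols were updated through Entrez identifiers (22818 rows) to a RefSeq table (GRCm38.p6, names only). Of several one-gene rows the highest by mean was kept, and genes above 4.22, the median of row means, were tested with limma 3.58.1 in R 4.3.3 (constant prior, 2-sided, Benjamini-Hochberg over 16245 genes), after the script was tested on simulated data. No correction was made for cell composition. Differences are dnTGFbRII minus WT, and ± is the standard error. The members and the 17 gene lists (261 genes, 234 measured, 187 tested) were chosen with earlier results of these data known, so list counts are descriptions. Genes named are the members, in each list up to 4 genes with the highest absolute test statistic, interferon receptor and STAT genes, defining markers and the 6 nearest profiles of Irf7 and Irf8. Others, chosen after their values were seen, are Tbk1, Batf3, Id2, Itgax, Bst2, Ifnb1, Irf2bp1, Irf2bp2, Irf2bpl, Zbtb46, H2-DMa, Cd3g and Bcl11b. Alternatives were other normalization, centring, row averaging, filters, prior, the replicate number as a block and each array left out. At most 0.0440% of values were identical between 2 arrays.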

Additional observations from a re-analysis of the deposited data

How the results depend on the processing

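Under the alternatives, 76 of 87 values of the 8 Irf differences kept their sign and side of the threshold, 0 passed it and 11 changed sign. Outside left-out arrays the 1 change was Irf2 with arrays centred on their medians (-0.0071). With an array left out the differences ranged from -0.19 to 0.091 (Irf1), -0.18 to 0.22 (Irf2), -0.22 to 0.29 (Irf3), -0.62 to 0.46 (Irf4), -0.97 to -0.01 (Irf5), -0.19 to 0.40 (Irf7), -0.21 to 0.54 (Irf8) and 0.19 to 0.55 (Irf9). Irf4 is not above the filter at the 75th percentile (6.58) and has no value there. Over all 4 arrays and with 1 left out, members without overlap between genotypes numbered 1 to 4 higher and 0 to 4 lower in dnTGFbRII. The shares over all tested genes ran from 12.6% to 33.6% higher and from 14.5% to 37.9% lower. Of all tested genes, 0 to 6 passed as lower with an array left out, the 6 without WT array 2.

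Arrays of the same number deviated together (r = 0.511 across tested genes), but the labels do not say that the number pairs them. In the fit with this number as a replicate block, 0 genes passed the adjusted threshold in limma, and 1467 (9.03%), Irf9 among them, were under 0.05 before adjustment. The differences were then 0.37 ± 0.11 for Irf9 (limma adjusted p = 0.507) and 0.17 ± 0.17 for Irf8 (limma adjusted p = 0.795).

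With no filter the median of Irf8-dependent dendritic cell genes was -0.57. List medians moved by more than their spread between arrays as follows: upstream sensors and kinases to 0.091 with centred arrays; interferon genes to 0.065, plasmacytoid markers to -0.087, neutrophil markers to 0.080 and T cell markers to 0.42 with no filter; plasmacytoid markers to -0.19, macrophage markers to 0.67 and T cell markers to 0.78 with the stricter filter. With an array left out they ranged over -0.084 to 0.22 (receptors and STAT genes), 0.020 to 0.17 (upstream sensors and kinases), 0.094 to 0.24 (interferon genes), 0.27 to 0.48 (Irf9 targets), -0.022 to 0.27 (Irf1-dependent genes), -0.087 to 0.059 (Irf regulators), -1.83 to -0.50 (Irf8-dependent dendritic cell genes), -2.65 to -0.93 (dendritic cell markers), 0.020 to 0.13 (plasmacytoid markers), -0.013 to 0.51 (macrophage markers), 0.13 to 0.59 (neutrophil markers), 0.025 to 0.23 (B cell markers), 0.47 to 0.59 (T cell markers), -0.22 to 0.061 (NK cell markers), and liver-resident markers over -0.39 to 0.099. The cause of these changes was not tested.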
